A study of Mus musculus with 39 samples.

Results

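Kdm6a, Kdm6b and Uty are the 3 mouse genes of the KDM6 family of H3K27 demethylases. They were taken by symbol from the gene list of the single-cell matrices, where they are 3 of 32285 features, and all 3 were found. Kdm6a (ENSMUSG00000037369) lies at chrX:18160862-18279936, Uty (ENSMUSG00000068457) at chrY:1085187-1245773 and Kdm6b (ENSMUSG00000018476) at chr11:69398508-69420367 (GRCm38.p6, the assembly also called mm10). Their levels are given in 2 single-cell libraries of dissociated whole mouse testis, by library and by germ-cell stage or somatic class, and open chromatin and H3K27me3 at their loci in sorted cKIT+ spermatogonia.

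The control library came from Kdm6a fl/y males without Cre, and the cKO library from Kdm6a fl/y males with Ddx4-Cre. Both genotypes carry the floxed allele, a gene copy flanked by recombination sites, so the controls are not wild type. Cre is driven by Ddx4, a gene of germ cells, so that Leydig, Sertoli and other somatic cells should keep Kdm6a. The labels give no age and do not say how many animals were pooled. ATAC-seq lists came from 2 control and 3 cKO libraries, H3K27me3 CUT&Tag lists from 2 control and 3 cKO libraries, and 1 control list was made with IgG.

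With 1 single-cell library per genotype there is no test between genotypes. Levels are given in CPM, the UMIs (counted molecules) of a gene scaled to the summed UMIs of the same cells. All intervals are exact 95% intervals that cover counting error only, not variation between animals. A cell here is a barcode with at least 3000 UMIs, 11252 in the control and 8520 in the cKO library, with medians of 8410 and 8499 UMIs. The libraries held 229882646 and 172368722 UMIs and shared 30 such barcodes, where 14.1 would be shared by chance. Below them, 49109 control barcodes with a median of 1357 UMIs and 47371 cKO barcodes with a median of 829 formed a plateau, taken as free RNA. It held Kdm6a at 2.08 CPM in control and 1.31 CPM in cKO. Cells were classed by lists of marker genes, and the classes are called by the name of their list with "-like". The kit reads the 3' end of a transcript, which the deletion may leave in place, so Kdm6a UMIs do not check the deletion.

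KDM6A and KDM6B remove methyl groups from the histone mark H3K27me3, which the PRC2 complex writes and which accompanies silent genes. KDM6A is also a subunit of the KMT2C/D complexes, which methylate H3K4 at enhancers. UTY is the Y-linked counterpart of KDM6A, with a similar domain order and little demethylase activity. In male meiosis the X and Y chromosomes are silenced from the pachytene stage on and are partly transcribed again in spermatids. An X-linked gene such as Kdm6a and a Y-linked gene such as Uty pass through this silencing, while the autosomal Kdm6b does not.

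Kdm6a and Uty descend from 1 ancestral gene, and the bases before their starts are shown because ATAC-seq peaks lie over both. RefSeq promoters (GRCm38.p6) were matched for 2 of the 3 members. The sequences run 5' to 3' on the strand of the gene and end at the base before the annotated start. Capitals mark CACGTG, an E-box motif that reads the same on both strands.
Kdm6a, chrX:18162325-18162574, plus strand: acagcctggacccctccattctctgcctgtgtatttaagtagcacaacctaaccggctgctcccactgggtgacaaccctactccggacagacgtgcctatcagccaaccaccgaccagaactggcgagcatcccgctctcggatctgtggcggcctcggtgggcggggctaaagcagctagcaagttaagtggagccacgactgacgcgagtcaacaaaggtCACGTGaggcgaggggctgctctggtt
Uty, chrY:1245760-1246009, minus strand: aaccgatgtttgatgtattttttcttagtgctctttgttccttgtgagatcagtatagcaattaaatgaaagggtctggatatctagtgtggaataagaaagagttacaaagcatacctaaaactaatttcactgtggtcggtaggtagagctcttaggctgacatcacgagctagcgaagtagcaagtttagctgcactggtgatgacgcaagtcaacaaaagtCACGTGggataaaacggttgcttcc
The Kdm6a sequence had 59.6% G and C and 15 CpG sites, and the Uty sequence 40.8% and 7, where the medians over all promoters were 52.0% and 6. CACGTG was found once in each, 27 bases before the Kdm6a start and 25 bases before the Uty start. It was found in 1634 of 27025 promoters of the same length (6.05%). A local alignment found a stretch that both share, shown next with the same capitals.
Kdm6a, chrX:18162493-18162553, plus strand: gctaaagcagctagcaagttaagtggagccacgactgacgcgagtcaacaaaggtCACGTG
Uty, chrY:1245779-1245838, minus strand: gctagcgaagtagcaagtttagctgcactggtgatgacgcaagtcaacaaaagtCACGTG
Of 59 aligned positions 47 were identical (79.7%), with 3 gap positions. The stretch is 61 bases long in Kdm6a and 60 in Uty and ends with the motif in both.

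Among classes with at least 50 cells in both libraries, Kdm6a was highest where germ cells enter meiosis. In the control library the meiotic entry-like class, gated on Stra8, Prdm9, Rec8 and other genes of meiotic initiation, held 110 Kdm6a UMIs in 319 cells, or 73.2 CPM (60.1 to 88.2). That interval stood apart from those of all 7 other classes. The level was 47.0 CPM in cells past at most 1 marker list (180 of the 319 had passed 2 or more), 50.1 with classes from clusters and 102 with free RNA subtracted, in each case above these 7 classes. Macrophage-like cells, too few to be compared, had 66.7 CPM (13.8 to 195) from 3 UMIs in 12 control cells. Leydig-like cells followed with 14.6 CPM (7.78 to 25), then Sertoli-like cells with 13.2 (7.04 to 22.6), spermatogonia-like cells with 12.7 (7.95 to 19.2) and early prophase spermatocyte-like cells with 6.86 (4.83 to 9.46). Neighbours in this run of 4 classes had overlapping intervals, and their order moved with the setting. With classes from clusters Sertoli-like and spermatogonia-like cells had 22.7 CPM each, and at a minimum of 5000 UMIs early prophase spermatocyte-like cells had 2.94. Round spermatid-like cells had 1.08 CPM (0.721 to 1.55) and elongating spermatid-like cells 0.838 (0.587 to 1.16), again with overlap. Late spermatocyte-like cells, where the X is silenced, were lowest at 0.346 CPM (0.198 to 0.561), apart from the class above.

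Meiotic entry-like cells held 36.2% of the Kdm6a UMIs and 1.13% of all UMIs of the control cells, that is, of barcodes with at least 3000 UMIs. A Kdm6a UMI was seen in 80 of these 319 cells (25.1%, 20.4 to 30.2), at a median depth of 3967 UMIs. In late spermatocyte-like cells, which serve as a low reference, it was seen in 15 of 2129 (0.705%), at a median depth of 20315. With every cell thinned to 3000 UMIs the shares were 19.1% (15.0 to 23.9) and 0.188%. Among entry-like cells 19 held 2 Kdm6a UMIs and 5 held 3 or more, with at most 4 in 1 cell. Free RNA at the level of the plateau would give 0.899 of the 110 UMIs in entry-like cells. It would give 6.00 of the 16 in late spermatocyte-like cells and 14.8 of the 36 in elongating spermatid-like cells.

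**Figure D1:**
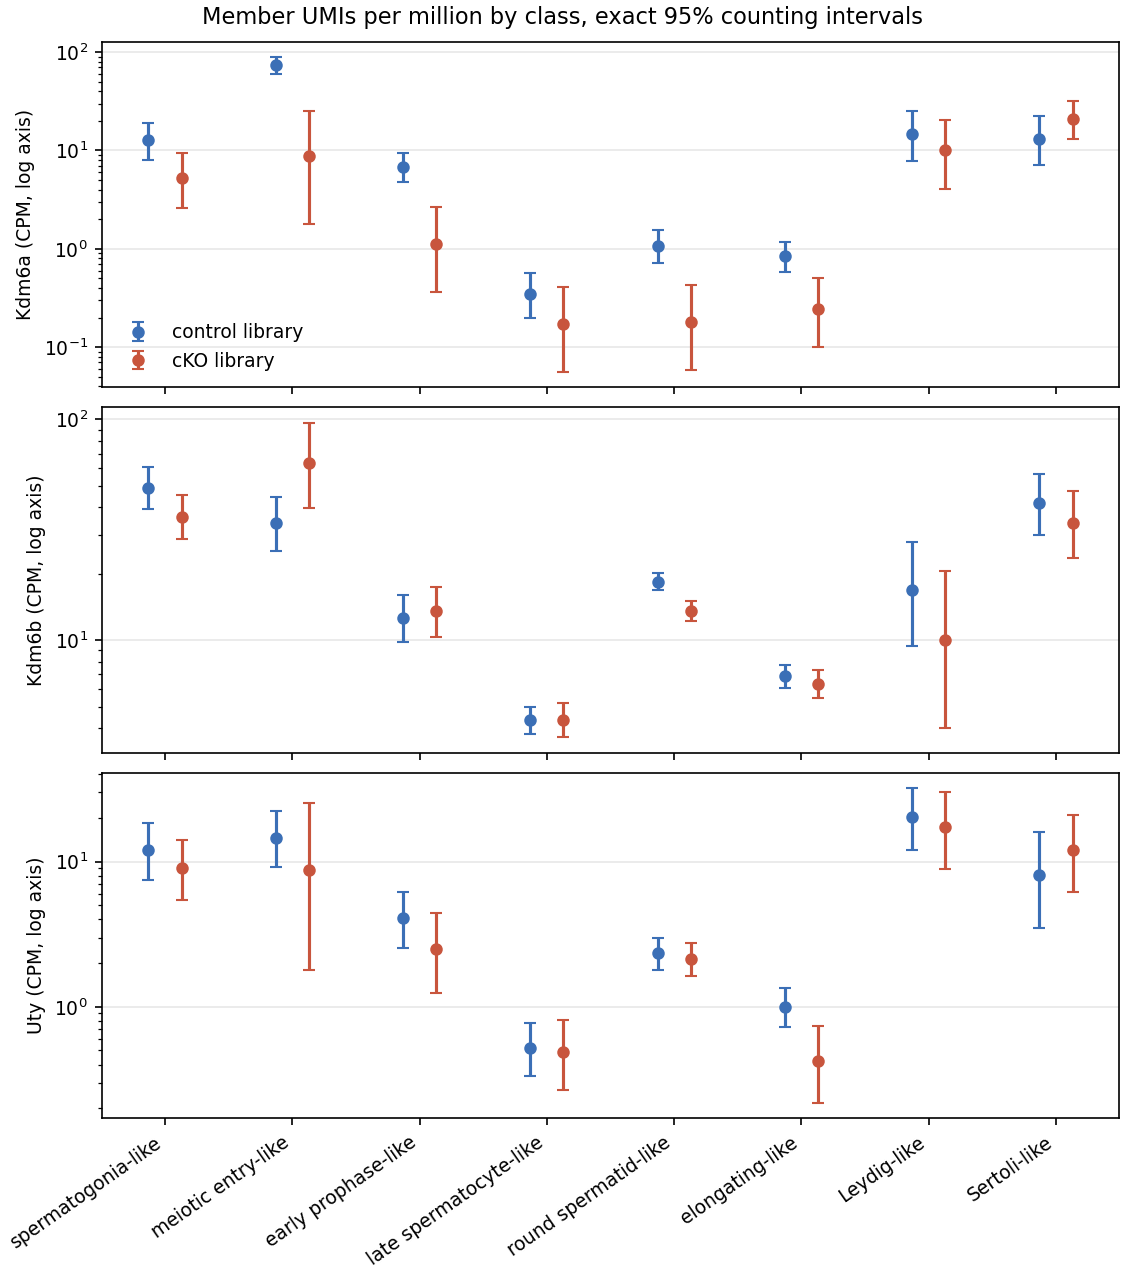
CPM (log axis) of Kdm6a, Kdm6b and Uty in 8 classes of the control and cKO libraries, with exact 95% counting intervals as bars. Kdm6a in the control reached 73.2 CPM in meiotic entry-like cells and was lower in the cKO in all 6 germ-cell classes, and the late spermatocyte-like class was lowest for all 3 genes in the control.

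In the cKO library Kdm6a was lower in all 6 germ-cell classes, and the intervals of 5 of these ratios lay below 0. Meiotic entry-like cells had 3 UMIs in 70 cells, or 8.69 CPM (1.79 to 25.4), against 73.2 CPM in the control. The log2 ratio of cKO to control was -3.07 (-5.37 to -1.49). Spermatogonia-like cells had 11 UMIs against 22, or 5.25 against 12.7 CPM, for a log2 ratio of -1.27 (-2.46 to -0.17). The interval includes 0 in the cells of the class that lay in the spermatogonia cluster, led by P3h3, alone (-1.04, -2.43 to 0.19), in cells past at most 1 marker list (-1.01, -2.29 to 0.18), at a minimum of 2000 UMIs (-1.02, -2.13 to 0.03) and with at least 5 list genes per cell (-0.75, -2.16 to 0.53), so the difference in this class was not settled. The first pair of these settings was added after the data were seen. Early prophase spermatocyte-like cells had 5 UMIs against 37, or 1.13 against 6.86 CPM, for a log2 ratio of -2.60 (-4.31 to -1.25). Over 9 other settings the log2 ratio ran from -3.50 to -2.07 in meiotic entry-like cells and from -3.18 to -1.95 in early prophase spermatocyte-like cells, and over 10 from -1.46 to -0.75 in spermatogonia-like cells. Among entry-like cells that met no other marker list, 139 in control and 41 in cKO, Kdm6a had 32 UMIs and 1 UMI.

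Among spermatids, round spermatid-like cells held 5 UMIs in the cKO and 29 in the control, for a log2 ratio of -2.56 (-4.29 to -1.18). Of the 29, 17 lay in the cluster led by Cd46, 1700017M07Rik and Dyrk4, which held 31.9% of the class in control and 16.8% in cKO. Within that cluster Kdm6a had 17 and 1 UMIs (-3.24, -8.62 to -0.56). The cluster led by Tssk5, Gm33308 and Itgad held 26.3% and 39.4% of the class, with 5 and 0 Kdm6a UMIs. In the cluster led by Hbb-bs, Nrros and Gm33525 Kdm6a had 5 and 1 UMIs (-2.50, -8.07 to 0.66). The cluster led by Ssxb1, Ssxb2 and Gm3453 went the other way, with 1 UMI in control and 3 in cKO (1.41, -2.23 to 7.12). Elongating spermatid-like cells held 7 and 36, for a log2 ratio of -1.76 (-3.18 to -0.57), which was -1.32 (-2.90 to 0.02) without cells called doublets. Free RNA would give 1.82 of the 5 and 4.11 of the 7 UMIs in the cKO. Late spermatocyte-like cells held 5 and 16, for a log2 ratio of -1.0 (-2.80 to 0.52), whose interval includes 0. Over 9 other settings it ran from -1.85 to -0.48, and it was -0.48 (-2.36 to 1.16) without cells called doublets.

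These ratios were read against all genes with at least 20 UMIs in the class. Over all cells Kdm6a had 2.29 CPM in control and 0.757 in cKO (304 and 75 UMIs), for a log2 ratio of -1.60 (-1.98 to -1.23). A log2 ratio of -1 or below was found in 1.74% of 21276 genes over all cells. Among cells with at most 10% mitochondrial UMIs the log2 ratio of Kdm6a was -2.24, and among cells past at most 1 marker list -1.09. Both settings were added once the data were known. The share of genes at -1 or below was 8.91% in spermatogonia-like cells, 4.48% in meiotic entry-like cells and 3.61% in early prophase spermatocyte-like cells. It was 2.04% in late spermatocyte-like, 2.44% in round spermatid-like and 2.08% in elongating spermatid-like cells. At 1 or above lay 4.38%, 3.38%, 0.53%, 0.528%, 0.762% and 0.43% of genes in these 6 classes, in the order just used. Both shares were highest in spermatogonia-like cells. Among genes with UMIs within 1.5 times those of Kdm6a, Kdm6a included, 239 of 2604 (9.18%) had a ratio as low in spermatogonia-like cells. In meiotic entry-like cells it was 1 of 2445 (0.0409%), Kdm6a itself, in early prophase spermatocyte-like cells 1 of 2003 (0.0499%), also Kdm6a, and in round spermatid-like cells 5 of 2220 (0.225%). It was 22 of 2320 (0.948%) in elongating spermatid-like and 187 of 1241 (15.1%) in late spermatocyte-like cells, and 3 of 2328 (0.129%) over all cells. The median log2 ratio of all genes was -0.22 in spermatogonia-like and -0.12 in early prophase spermatocyte-like cells, and between -0.10 and 0.01 over all cells and in the other classes.

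**Figure D2:**
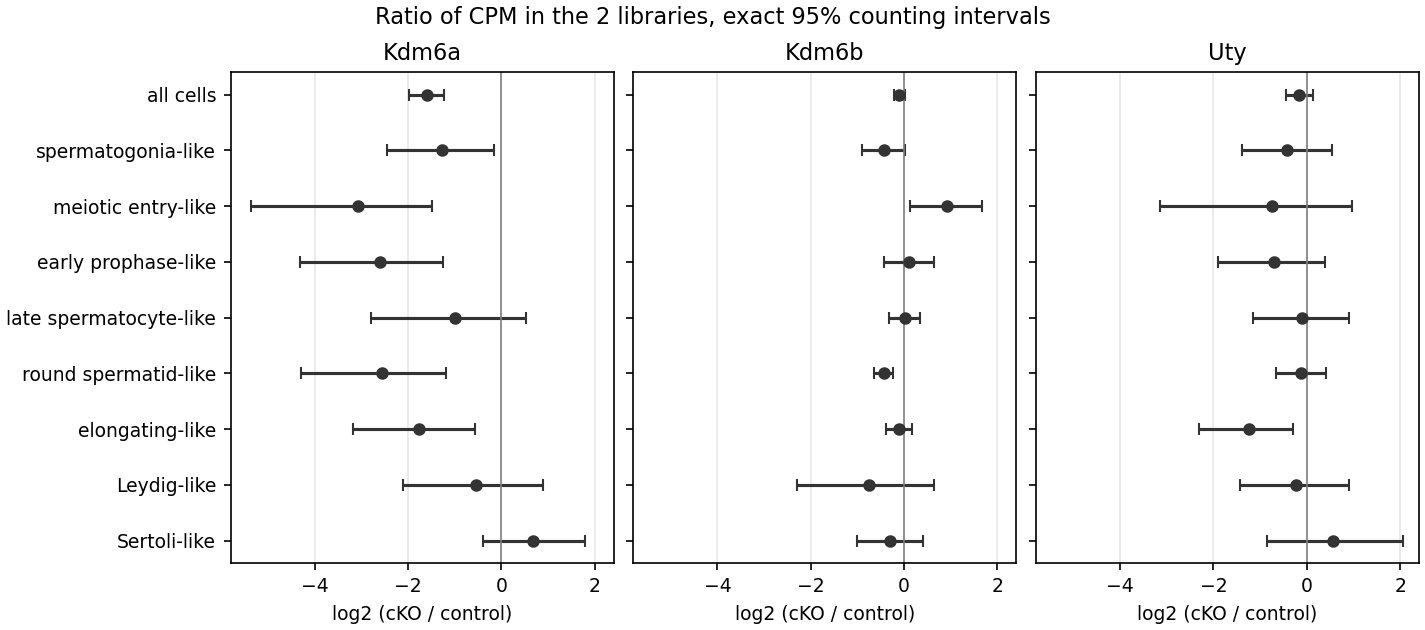
Log2 ratio of CPM, cKO over control, for Kdm6a, Kdm6b and Uty over all cells and in 8 classes, with exact 95% counting intervals as bars and a line at 0. For Kdm6a the intervals of 5 germ-cell classes lie left of 0, and those of Leydig-like and Sertoli-like cells include it.

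The classes differed in size and make-up, which bears on the sum over all cells. Meiotic entry-like cells were 2.84% of control cells and 0.822% of cKO cells. At a minimum of 2000 UMIs they were 2.59% (416 of 16047) and 1.5% (163 of 10836), and the log2 ratio of Kdm6a in the class was -2.07. If each class of the cKO had held Kdm6a at its control level, its cells would have had 195 UMIs, and 74 were found, for a log2 ratio of -1.39. Without the meiotic entry-like class the ratio over all other cells was -1.02 (-1.43 to -0.62). The same sums for Uty were 161 found against 200 (-0.31) and for Kdm6b 940 against 1140 (-0.28). No interval is given for these sums, since the control levels of the classes carry counting error of their own.

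Within the entry-like and early prophase-like cells, Kdm6a was higher in bins with a larger share of entry-list UMIs. These cells were ordered by the share of entry-list UMIs among the UMIs of the entry, early prophase and late spermatocyte lists and split at 8.33%, 12.2% and 32.9%, the quartiles of the control. From the lowest bin to the highest, control Kdm6a was 0.943, 4.75, 37.8 and 71.6 CPM (2, 11, 47 and 87 UMIs). In the cKO it was 0, 0.623, 7.85 and 9.96 CPM (0, 1, 4 and 3 UMIs), where the level of 3 counts is 1.27 CPM and the interval of 0 reaches 1.57 CPM. The log2 ratios of the upper 3 bins were -2.93 (-8.36 to -0.15), -2.27 (-4.20 to -0.82) and -2.84 (-5.15 to -1.25). The upper pair of bins held 247 and 247 control cells but 91 and 60 cKO cells, and the part of this difference in the ratio of the class was not tested.

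**Figure D3:**
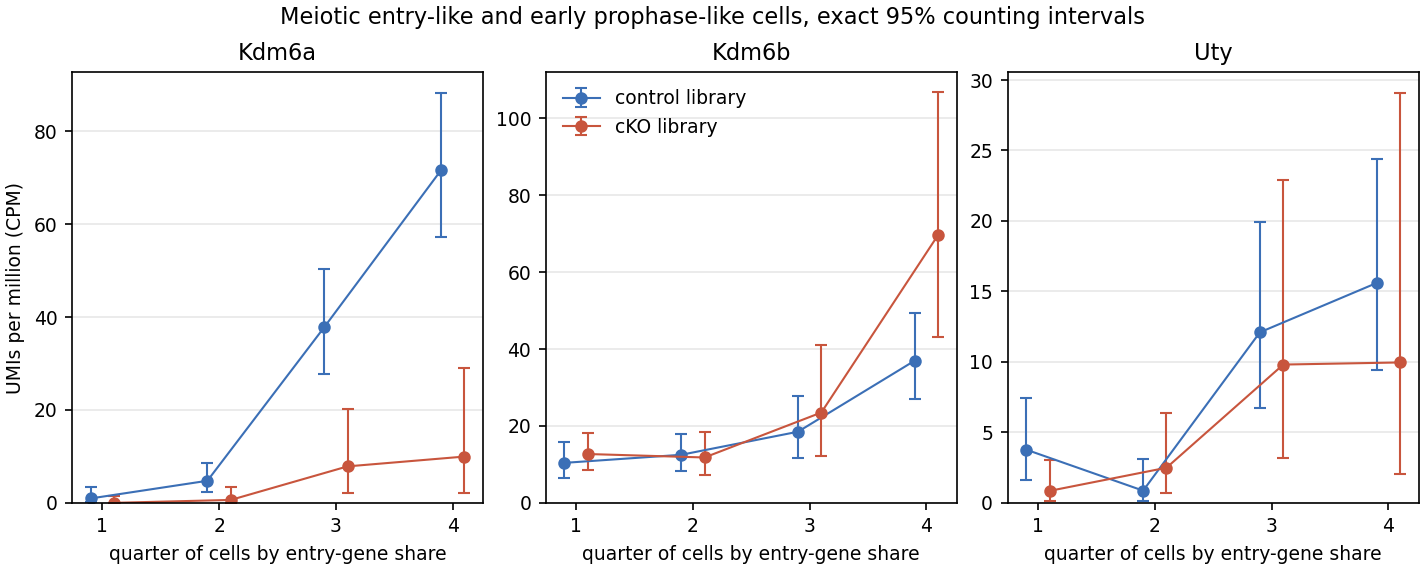
CPM of Kdm6a, Kdm6b and Uty in meiotic entry-like and early prophase spermatocyte-like cells, in 4 bins of the share of entry genes from low (1) to high (4), with exact 95% counting intervals. Control Kdm6a climbs from 0.943 to 71.6 CPM while cKO Kdm6a stays at 9.96 CPM or less, and Kdm6b is highest in bin 4 in both libraries.

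Clusters gave the same picture of the entry stage. The cluster led by Stra8, Ccnb3 and Gm4969 (Meiosin) held 86.8% of the entry-like cells of the control and 62.9% of those of the cKO. It had 136 Kdm6a UMIs in 500 control cells and 8 in 137 cKO cells. Of the other entry-like cells most lay in the cluster led by P3h3, Crabp1 and Cenpa, with 12.5% of the class in control and 32.9% in cKO. In early prophase spermatocyte-like cells, 23 of the 37 control UMIs came from the 125 cells (18.7% of the class) that lay in the Stra8 cluster, and 3 of the 5 cKO UMIs from 40 cells (7.45%) there. The cluster led by Rad51ap2, Elavl3 and Ccdc152 held 44.2% of the class in control and 40.0% in cKO, with 11 and 1 Kdm6a UMIs. The cluster led by Rnf227, Stambp and Maz held 35.4% and 50.7%, with 3 and 1 Kdm6a UMIs. Its highest marker list was that of late spermatocytes, so a larger part of the cKO class clustered with a later stage. The part of this unequal make-up in the ratio of -2.60 was not tested. With classes from clusters the ratio was -3.18 (-8.58 to -0.47).

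Spermatogonia-like cells were split by Stra8 and by Kit, the receptor that marks differentiating spermatogonia. Among cells with no Stra8 UMI Kdm6a had 18.5 CPM in control (19 UMIs) and 5.17 in cKO (8 UMIs), for a log2 ratio of -1.84 (-3.24 to -0.58). Among cells with a Stra8 UMI it had 3 UMIs in each library, 4.24 and 5.48 CPM (log2 ratio 0.37, -2.53 to 3.27). With Kit it had 10 and 2 UMIs, and without it 12 and 9, with log2 ratios of -1.81 (-5.04 to 0.42) and -1.31 (-2.73 to 0.06). The ratio of the class rests on 22 and 11 UMIs in all, too few to place the difference in a subset. Of the class, 82.6% in control and 79.2% in cKO lay in the cluster led by P3h3, Crabp1 and Cenpa. In the cKO 20 cells (9.26%) lay in a cluster of late spermatocytes with a median of 26177 UMIs, and they held 0 Kdm6a UMIs and 1 Kdm6b UMI. Cells of the P3h3 cluster gave 78.1% of the class's UMIs in control and 50.8% in cKO, so the sums of this class differ in make-up.

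Spermatid-like cells, round and elongating together, were ordered by the UMIs of the elongating list (protamines, transition proteins and other late genes) per 10000 UMIs. Control Kdm6a was 0.563, 0.831, 1.53 and 1.58 CPM in bins that begin at 0, 100, 300 and 1000, and 0.427 CPM from 2000 up. In the bin from 1000 to 2000, 29 UMIs were found in 2418 control cells and 0 in 1073 cKO cells, where the level of 3 counts is 0.361 CPM and the interval of 0 reaches 0.444 CPM. The control level there was 1.58 CPM (1.06 to 2.27), which overlaps that of the bin before (0.765 to 2.74). Called doublets were kept in these bins. Without them elongating spermatid-like cells held 23 Kdm6a UMIs in control instead of 36, and 6 in cKO instead of 7. From 2000 up the 2 libraries held 11 and 7 UMIs, for a log2 ratio of -0.35 (-1.96 to 1.15). In the 3 bins below 1000 the log2 ratios were -2.71, -1.56 and -2.71, with intervals that include 0. A difference was not detectable in the latest cells at this depth.

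**Figure D4:**
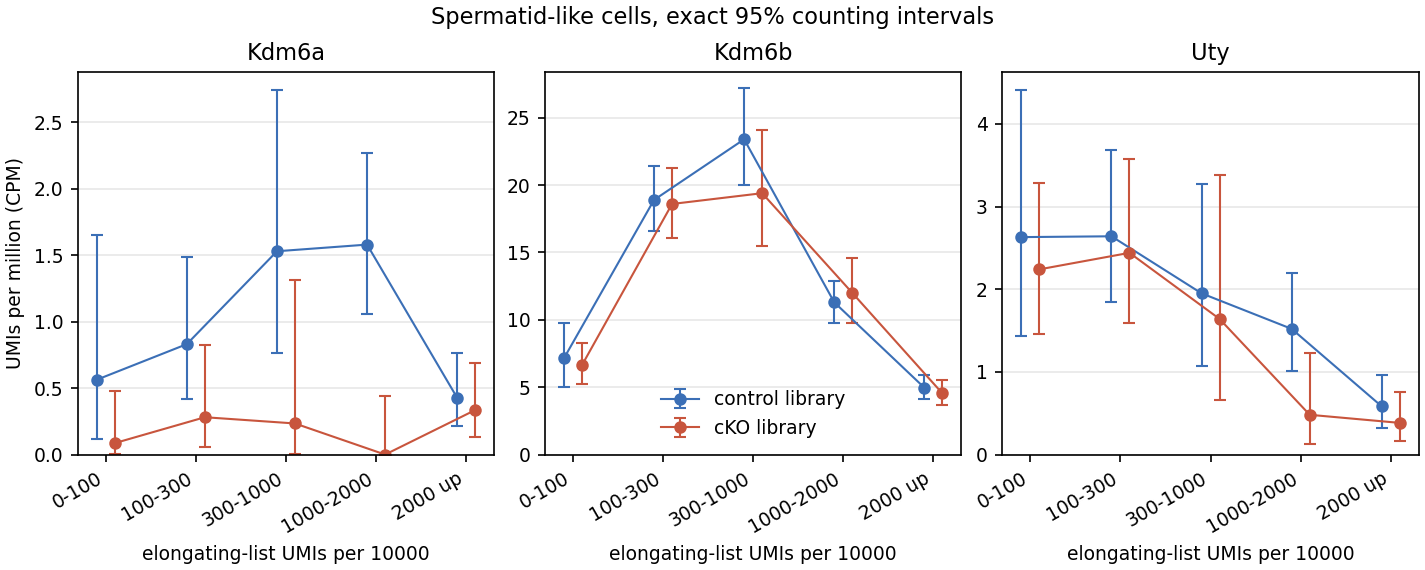
CPM of Kdm6a, Kdm6b and Uty in spermatid-like cells by the UMIs of the elongating list per 10000 UMIs, from early (left) to late (right), with exact 95% counting intervals. Control Kdm6a is highest in the bin from 1000 to 2000, where the cKO has 0 UMIs, at 1.58 CPM beside 1.53 in the bin before. Kdm6b peaks at 23.4 CPM in the control and 19.4 in the cKO in the bin from 300 to 1000.

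In the 2 somatic classes, which Ddx4-Cre should spare, the intervals of the Kdm6a ratios included 0. Leydig-like cells, gated on Insl3, Cyp17a1 and other steroidogenic genes, had 13 UMIs in 97 control cells and 7 in 93 cKO cells, or 14.6 and 10.0 CPM. The log2 ratio was -0.55 (-2.11 to 0.88), and -1.17 among cells with at most 10% mitochondrial UMIs (11 and 3 UMIs in 76 and 55 cells). Sertoli-like cells had 13 UMIs in 151 control cells and 21 in 134 cKO cells, or 13.2 and 21 CPM, for a log2 ratio of 0.67 (-0.40 to 1.79). Sertoli-like cells held 28.0% of the Kdm6a UMIs of the cKO and Leydig-like cells 9.33%, where each held 4.28% in the control. The intervals are wide and do not show equal levels. A log2 ratio of -1 or below was found in 6.5% of genes in Leydig-like and 2.52% in Sertoli-like cells, and of 1 or above in 2.21% and 1.53%. Among genes within 1.5 times the UMIs of Kdm6a, 31.5% and 90.1% had a ratio as low as its own. Too few macrophage-like cells were found for a ratio: 3 Kdm6a UMIs in 12 control cells and 1 in 8 cKO cells.

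The Sertoli-like class was not of 1 kind. Of its control cells 66.9% lay in a cluster led by Tsx, 1700018G05Rik and 1700011M02Rik, in which the elongating list was the highest list. Of its cKO cells 59.7% lay in a cluster led by Gm2044, Clu and Amhr2. In this second cluster alone, Kdm6a had 10 UMIs in 45 control cells and 19 in 80 cKO cells, for a log2 ratio of 0.43. Mitochondrial genes took 13% and 14% of the class's UMIs. Among cells with at most 10% mitochondrial UMIs, 49 and 33 Sertoli-like cells were left with 3 and 1 Kdm6a UMIs, for a log2 ratio of -1.5, so the direction in this class was not settled.

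In the control library Uty was highest in Leydig-like cells and, like Kdm6a, lowest in late spermatocyte-like cells. The lowest class of the cKO was elongating spermatid-like, at 0.423 CPM beside 0.485 in late spermatocyte-like cells, with overlapping intervals. Control levels were 20.2 CPM (12.0 to 32.0) in Leydig-like, 14.6 (9.17 to 22.2) in meiotic entry-like, 12.1 (7.5 to 18.5) in spermatogonia-like, 8.14 (3.51 to 16.0) in Sertoli-like and 4.08 (2.56 to 6.18) in early prophase spermatocyte-like cells. Round spermatid-like cells had 2.34 CPM (1.80 to 2.99), elongating spermatid-like cells 1.00 (0.724 to 1.35) and late spermatocyte-like cells 0.519 (0.332 to 0.771). Of all neighbours in this order, only the intervals of round and elongating spermatid-like cells stood apart. Round spermatid-like cells held 25.8% of the control Uty UMIs, the largest share of any class, and 20.3% of all UMIs of the control cells.

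Over all cells the Uty level was 1.84 CPM in control (244 UMIs) and 1.65 CPM in cKO (163 UMIs), for a log2 ratio of -0.16 (-0.45 to 0.13). Of the 8 classes, elongating spermatid-like cells were the 1 class whose interval lay off 0, with 43 UMIs in control and 12 in cKO, for a log2 ratio of -1.24 (-2.30 to -0.29). In that class 2.08% of all genes were at -1 or below. Free RNA would give 14 of the 43 and 6.16 of the 12. In the bin of spermatids from 1000 to 2000, where the cKO had 0 Kdm6a UMIs, Uty had 28 and 4 UMIs (1.52 and 0.481 CPM), for a log2 ratio of -1.66 (-3.64 to -0.15). From 2000 up it had 15 and 8 UMIs (-0.60, -2.05 to 0.72). The bin from 1000 to 2000 held 2418 control and 1073 cKO cells, and that from 2000 up 2901 and 2758. The part of this make-up in the ratio of the class was not tested. In round spermatid-like cells Uty had 63 and 59 UMIs, for a log2 ratio of -0.12 (-0.66 to 0.41). In meiotic entry-like cells, where Kdm6a had a log2 ratio of -3.07, Uty had 22 and 3 UMIs, for a log2 ratio of -0.75 (-3.14 to 0.98). In early prophase spermatocyte-like cells it had 22 and 11 UMIs, for a log2 ratio of -0.71 (-1.91 to 0.39), which was 0.92 at a minimum of 5000 UMIs. No class showed a rise of Uty whose interval excluded 0.

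Kdm6b was spread over early germ cells, Sertoli-like cells and spermatids. Control levels were 49.0 CPM (39.2 to 60.6) in spermatogonia-like, 41.7 (29.9 to 56.6) in Sertoli-like and 33.9 (25.3 to 44.6) in meiotic entry-like cells. Round spermatid-like cells had 18.4 CPM (16.8 to 20.1), Leydig-like cells 16.9 (9.44 to 27.8) and early prophase spermatocyte-like cells 12.6 (9.80 to 16.0). Elongating spermatid-like cells had 6.87 (6.10 to 7.70) and late spermatocyte-like cells 4.34 (3.76 to 4.99). The steps below meiotic entry-like cells and below early prophase spermatocyte-like cells, and the last step, stood apart. Round spermatid-like cells held 36.7% of the control Kdm6b UMIs and 20.3% of all UMIs of the control cells. Of 357 such cells with a Kdm6b UMI 65 had 2 and 27 had 3 or more, with up to 9 in 1 cell.

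Kdm6b had 10.2 CPM in control and 9.51 in cKO over all cells (1351 and 942 UMIs), for a log2 ratio of -0.10 (-0.22 to 0.02). Against the background of 1.74% of genes past a log2 ratio of 1 downward and 0.578% upward, neither Kdm6b nor Uty passed that limit over all cells. In meiotic entry-like cells, where Kdm6a was lowest relative to control, Kdm6b had 63.7 CPM in cKO (22 UMIs) and 33.9 in control (51 UMIs), for a log2 ratio of 0.91 (0.12 to 1.66). In the bin with the highest share of entry-list UMIs it was 69.7 and 37.0 CPM (21 and 45 UMIs), for a log2 ratio of 0.91 (0.09 to 1.69). In the 3 bins below, it was 0.30, -0.08 and 0.35 from low to high, with intervals that include 0. At a minimum of 2000 UMIs per barcode the log2 ratio in meiotic entry-like cells was 0.50 (-0.23 to 1.20). The interval also included 0 at a minimum of 5000 UMIs (0.55, -0.67 to 1.65), in cells past at most 1 marker list (0.83, -0.20 to 1.80) and with at most 10% mitochondrial UMIs (0.79, -0.03 to 1.57). It lay above 0 with classes from clusters (1.29, 0.69 to 1.88), with at least 5 list genes (1.01, 0.12 to 1.84) and without called doublets (0.97, 0.17 to 1.72). Of the Kdm6b UMIs of the class, 13 of 22 in cKO came from 23 cells of the P3h3 cluster and 14 of 51 in control from 40 such cells.

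In round spermatid-like cells Kdm6b was lower in the cKO, at 13.6 against 18.4 CPM (373 and 496 UMIs), for a log2 ratio of -0.44 (-0.64 to -0.24). The Cd46 cluster, with 31.9% of the class in control and 16.8% in cKO, held 261 of the 496 control UMIs. Within it Kdm6b was 27.5 CPM in control and 21.5 in cKO (-0.36, -0.69 to -0.03). In the Tssk5 cluster it was 10.2 and 7.53 CPM (-0.44, -0.92 to 0.04), and in the cluster led by Hbb-bs, Nrros and Gm33525 it was 21.1 and 21.5 CPM (0.03, -0.33 to 0.38). Round and elongating spermatid-like cells pooled, 653 cKO and 240 control cells lay in the lowest bin of the elongating list, where Kdm6b was 6.63 and 7.14 CPM. In the 2 bins from 100 to 1000, which held the peak of Kdm6b, it was 18.9 and 23.4 CPM in control and 18.6 and 19.4 CPM in cKO. In all 5 bins the interval of the log2 ratio included 0, and the ratios ran from -0.27 to 0.09. These bins hold other cells than the round spermatid-like class, and the part of the elongating list in its ratio was not tested.

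In spermatogonia-like cells Kdm6b had 85 and 76 UMIs, for a log2 ratio of -0.43 (-0.90 to 0.03). It was 77.4 CPM in cKO and 56.4 in control among cells with Kit (0.46, -0.11 to 1.03) and 16.3 and 39.6 CPM among cells without (-1.28, -2.13 to -0.44). Among cells of the spermatogonia cluster alone the latter were 37.0 and 59.6 CPM (-0.69, -1.65 to 0.23). In that cluster, cells with and without Kit together, the log2 ratio was 0.11 (-0.39 to 0.60). Of the 2 libraries, 119 of 218 control and 93 of 216 cKO spermatogonia-like cells had a Kit UMI. With at least 5 list genes per cell the log2 ratio of the class was 0.40, and with classes taken from clusters 0.20, so its direction was not settled. Early prophase and late spermatocyte-like cells had log2 ratios of 0.10 (-0.42 to 0.63) and 0.01 (-0.32 to 0.34).

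Few cells showed a UMI of more than 1 member, where each member alone was seen in a small part of the cells. Among control cells a UMI was seen in 2.29% for Kdm6a, 9.91% for Kdm6b and 2.12% for Uty. How often members would share a cell by chance was not tested, so the counts do not show that they avoid each other. In the control 1496 cells held a UMI of at least 1 member, 99 of exactly 2 and 8 of all 3, and in the cKO 953, 45 and 3. Of the 8 control cells with all 3, 3 were spermatogonia-like, 2 meiotic entry-like, 2 round spermatid-like and 1 Sertoli-like.

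Kdm6a and Uty were also followed through the silencing of the sex chromosomes. X-linked genes took 1.89% of the UMIs of control meiotic entry-like cells, 0.491% in early prophase, 0.166% in late spermatocyte-like and 1.24% in round spermatid-like cells. From entry-like to early prophase spermatocyte-like cells of the control the median log2 change was -1.87 over 359 X-linked genes, -1.43 over 10 Y-linked genes and -0.19 over 11117 autosomal genes. Kdm6a changed by -3.41 (-3.99 to -2.86), Uty by -1.84 (-2.76 to -0.92) and Kdm6b by -1.43 (-1.97 to -0.87). From early prophase to late spermatocyte-like cells Kdm6a changed by -4.31 (-5.26 to -3.43), with a median of -1.58 over 430 X-linked genes. In that step Uty changed by -2.98 (-3.87 to -2.07), with a median of 0.04 over 29 Y-linked genes, and Kdm6b by -1.54 (-1.94 to -1.12), with a median of -0.33 over 14300 autosomal genes. Into round spermatid-like cells Kdm6a gained 1.64 (0.71 to 2.62), an interval that holds the X-linked median of 2.16, and Uty gained 2.17 (1.47 to 2.92) with a Y-linked median of 3.04 over 41 genes. In the cKO the Kdm6a step was 0.07 (-2.05 to 2.19). Kdm6b gained 2.08 (1.85 to 2.33) in this step, with an autosomal median of -0.44. The steps compare classes of 1 library, and the genes are not independent replicates. Each step has its own set of genes, and control early prophase and late spermatocyte-like cells held 5390188 and 46287179 UMIs. The part of gene choice and depth in the medians was not tested, nor that of class make-up in the steps. Of the 37 Kdm6a UMIs of control early prophase spermatocyte-like cells, 23 came from the Stra8 cluster. Of the cells of this class, 35.4% lay in the Rnf227 cluster, whose highest list was that of late spermatocytes. At a minimum of 5000 UMIs the Kdm6a level of the class was 2.94 CPM instead of 6.86.

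Some classes of the cKO held less X-linked and Y-linked RNA than those of the control. In early prophase spermatocyte-like cells X-linked genes took 0.303% of UMIs in cKO and 0.491% in control, and Y-linked genes 86.3 and 172 CPM. In spermatogonia-like cells they took 0.938% and 1.42%, and Y-linked genes 211 and 302 CPM. Among spermatogonia-like cells of the P3h3 cluster alone the X share was 1.58% in cKO and 1.6% in control, and Y-linked genes had 319 and 344 CPM. In meiotic entry-like cells the X share was 1.93% in cKO and 1.89% in control, and Y-linked genes had 374 and 430 CPM. In the somatic classes Y-linked genes were also lower in the cKO, at 142 and 216 CPM in Leydig-like and 146 and 185 CPM in Sertoli-like cells, while the X share was 1.95% and 2.09% in the first and 2.56% and 2.51% in the second. Of early prophase spermatocyte-like cells, 50.7% in cKO and 35.4% in control lay in the Rnf227 cluster, whose highest list was that of late spermatocytes. The part of this make-up in the X and Y content was not tested. The part of the unequal X and Y content in the ratios of Kdm6a and Uty in the classes named here was not tested.

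Other X and Y partner genes give the comparison for Kdm6a and Uty. These are gene pairs that, like Kdm6a and Uty, have kept a copy on each sex chromosome, among them the demethylases Kdm5c and Kdm5d, the RNA helicases Ddx3x and Ddx3y and the deubiquitinases Usp9x and Usp9y. Over all cells 0 of 13 passed a log2 ratio of 1 in size, where 1.74% of all genes did downward and 0.578% upward. The median of the 13 was -0.25. In meiotic entry-like cells 2 of 12 with at least 20 UMIs were past 1 downward, where 4.48% of all genes were, and 0 upward, where 3.38% were. The 2 partners past 1 were Kdm5c (-1.05, -4.20 to 1.01) and Zfy2 (-1.40, -4.53 to 0.62), each with 2 UMIs in the cKO and an interval that includes 0. The median was -0.32 and the lowest -1.40, beside -3.07 for Kdm6a. The interval of Kdm6a, which rests on 3 UMIs in the cKO, overlapped those of 6 of the 12 partners (Kdm5c, Ddx3x, Ddx3y, Eif2s3x, Usp9y and Zfy2). By pair, the X and the Y copy had -0.68 and -0.70 for Ddx3x and Ddx3y, -0.35 and -0.86 for Usp9x and Usp9y, and -0.05 and 0.02 for the translation factor genes Eif2s3x and Eif2s3y. The zinc-finger gene Zfx had -0.30 and its Y copy Zfy1 0.80, and the ubiquitin-activating enzyme genes Uba1 and Uba1y had 0.79 and -0.03. Of these values only the interval of Uba1 (0.14 to 1.41) lay off 0. In round spermatid-like cells 0 of 12 passed in either direction, where 2.44% of all genes did downward and 0.762% upward, a count near these shares. The lowest value was -0.78 (Usp9x), beside -2.56 for Kdm6a, and 0 of the 12 intervals overlapped that of Kdm6a. In elongating spermatid-like cells 1 of 12 passed downward, Kdm5c at -1.40 (-2.56 to -0.37), where 2.08% of all genes did, and 9 of 12 intervals overlapped that of Kdm6a. In late spermatocyte-like cells 0 of 12 passed, where 2.04% of all genes did downward and 0.528% upward, and all 12 overlapped. The share of all genes whose interval overlaps that of Kdm6a was not counted in any class.

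Early prophase spermatocyte-like cells differed. Of 11 partner genes 7 were past 1 downward, with a median of -1.09, where 3.61% of all genes were past that limit. The class was unequal in make-up. The Rnf227 cluster, whose highest list was that of late spermatocytes, held 50.7% of it in cKO and 35.4% in control. The Stra8 cluster held 7.45% and 18.7%. The part of this make-up in the partner ratios was not tested. Usp9x had 53.1 CPM in control and 17 in cKO, for a log2 ratio of -1.65 (-2.03 to -1.27). Ddx3x had -1.94 (-3.16 to -0.88), Zfy1 -1.65 (-2.32 to -1.02), Zfy2 -1.17, Ddx3y -1.13, Eif2s3y -1.09 and Usp9y -1.08. The genes with at least 20 UMIs that did not pass were Kdm5c, Zfx, Uba1 and Uba1y, from -0.96 to -0.52. Kdm6a, at -2.60 (-4.31 to -1.25), had an interval that overlaps those of 10 of the 11. In spermatogonia-like cells 4 of 10 were past 1 downward, where 8.91% of all genes were: Kdm5d at -2.52, Usp9y at -1.38, Usp9x at -1.15 and Ddx3x at -1.13. The intervals of all 10 overlap that of Kdm6a there. Among cells of the P3h3 cluster alone 1 of 10 was past 1 downward, Kdm5d at -1.90 (-3.91 to -0.31), where 3.01% of all genes were at -1 or below and 1.0% at 1 or above. There Usp9x had -0.59, Usp9y -0.69 and Ddx3x -0.37.

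**Figure D5:**
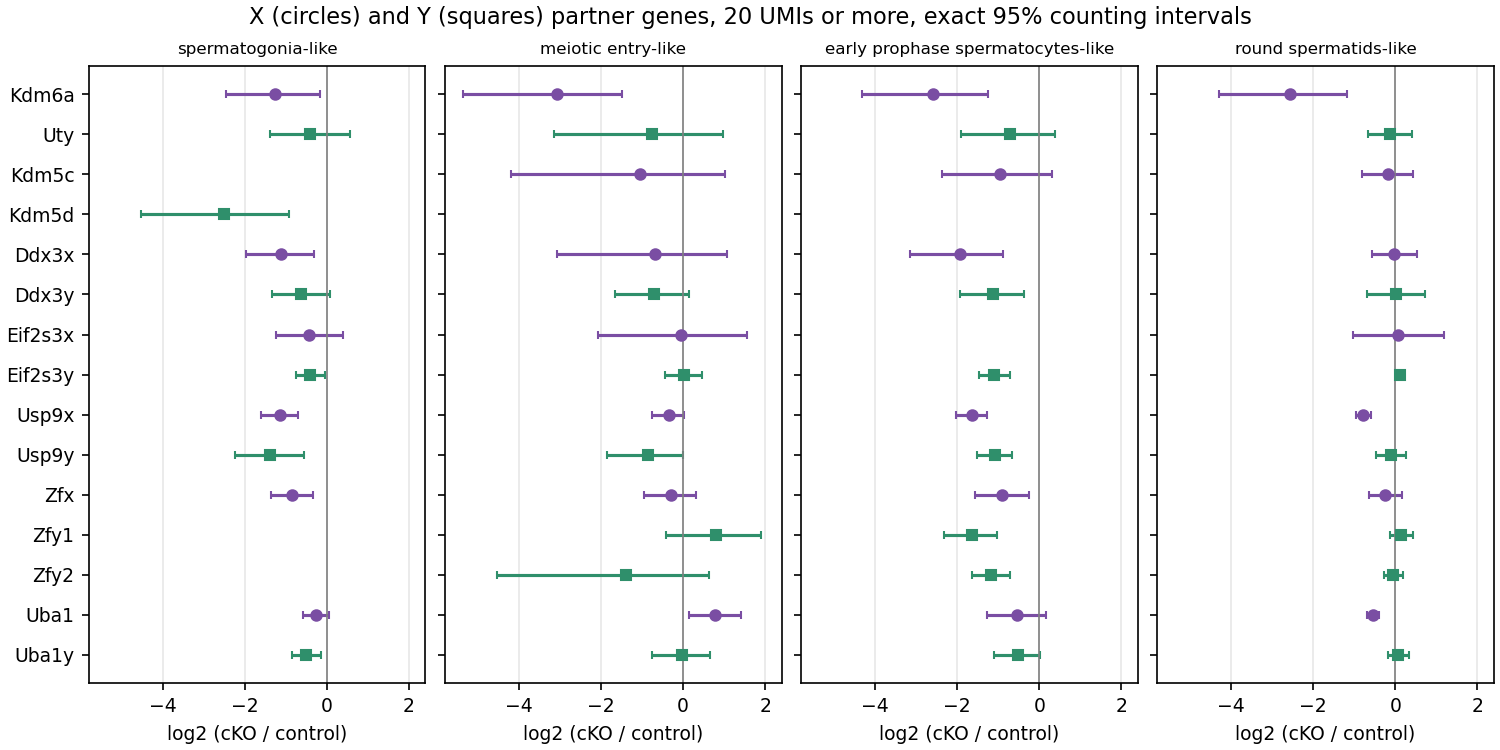
Log2 ratio of CPM, cKO over control, for Kdm6a, Uty and 13 other X and Y partner genes in 4 classes, for genes with at least 20 UMIs in both libraries together, with exact 95% counting intervals. Kdm6a has the lowest value in meiotic entry-like, early prophase spermatocyte-like and round spermatid-like cells. Its interval overlaps those of 6 of 12, 10 of 11 and 0 of 12 partners in these classes. In spermatogonia-like and early prophase spermatocyte-like cells several partners also lie past -1.

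Genes of the opposing enzyme and of the partner complex were taken from a list. Of 13 PRC2 genes 12 were in the matrices. Over all cells 0 of 11 with at least 20 UMIs passed a log2 ratio of 1 in either direction, where 1.74% of all genes did downward and 0.578% upward. The median of the 11 was -0.15. Ezh2, the main methyltransferase of PRC2, named after its values were seen, had 112 and 109 CPM in control and cKO, for a log2 ratio of -0.04 (-0.08 to -0.01). Ezh1, the other methyltransferase, was the 1 PRC2 gene past 1 in any of the 8 classes, at 39.2 CPM in control and 13.9 in cKO in spermatogonia-like cells, for a log2 ratio of -1.5 (-2.18 to -0.85). That is 1 of 11 PRC2 genes, where 8.91% of all genes in the class were at -1 or below, a share near the background. Among cells of the P3h3 cluster alone Ezh1 had 45.0 and 21.6 CPM (-1.06, -1.82 to -0.35), and Epop, another PRC2 gene, was past 1 upward at 5.91 and 14.1 CPM (8 and 15 UMIs), with a log2 interval of -0.07 to 2.70 that includes 0. Of the 9 genes of the KMT2C/D list, 8 had at least 20 UMIs over all cells and 0 passed in any of the 8 classes, with a median of -0.33 over all cells. In these classes 2.04% to 8.91% of all genes were at -1 or below and 0.43% to 4.38% at 1 or above.

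Genes most like each member were taken by the correlation of log2(CPM + 1) over the 8 control classes, among 17387 genes with at least 50 UMIs. The values describe 8 points that share 1 library, and carry no test. For Kdm6a they were Phka1 (r = 0.991), B3glct (0.981), Hist1h1c (0.98), Rel (0.98) and Hprt (0.977), all highest in meiotic entry-like cells. Phka1 encodes a phosphorylase kinase subunit and Hprt a purine salvage enzyme. Phka1 went from 16.0 CPM in meiotic entry-like cells to 0.108 in late spermatocyte-like cells. For Uty they were Bcap31 (0.997), Tmem185a (0.984), Rpl10 (0.983), Sacm1l (0.978) and Gm26885 (0.975), and for Kdm6b Zmym3 (0.971), Iqgap3 (0.96), Rad21 (0.957), Fbxo21 (0.953) and Snrk (0.952). Kdm6a had r = 0.903 with Uty and 0.761 with Kdm6b.

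Open chromatin at the starts was read from the authors' ATAC-seq peak lists of cKIT+ spermatogonia, where fold enrichment is the peak's own value from the authors. The lists held 14635 to 40497 peaks, and their depth is unknown. The identity of the sorted cells was not checked, as no RNA of these cells was analysed here. A peak over the Kdm6a start, base 18162575 of the X, was listed in 2 of 2 control and 3 of 3 cKO libraries. It ran from 18161873 to 18163122 with a fold of 6.37 in control 1 and had 6.24 in control 2. In cKO 1, 2 and 3 the fold was 6.29, 7.51 and 5.87. The control values lie between those of the cKO. In each list 8.39% to 13.4% of peaks had a higher fold. The lists thus show no difference in this peak between genotypes that exceeds the spread within them.

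At Uty a peak over the start was listed in control 1, control 2 and cKO 3, with folds of 5.41, 5.66 and 5.98, and not in cKO 1 or cKO 2. Those were the lists with 2 and 1 peaks on the whole Y, where the other 3 had 5 each, and with fewer peaks in all, 14635 and 18883, than the other 3 (19118, 33250 and 40497). The counts on the Y include the Uty peaks themselves. The part of list length in the missing peak was not tested. A second Uty peak lay within the gene, at chrY:1194069-1195043 in control 1, and was listed in all 5 libraries with folds of 4.64 to 6.44. At Kdm6b, a peak near chr11:69417551-69419626 was listed in all 5 libraries with folds of 3.54 to 4.32. One near chr11:69408697-69411671 was also listed in all 5, as 2 pieces in cKO 2. One near chr11:69401172-69401645 was listed in control 1, control 2 and cKO 3, the 3 longest lists. All lie within the annotated gene. The peaks in the list of cKO 1 carry names that begin like those of control 1, though their coordinates differ. The values given for cKO 1 rest on its label.

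No H3K27me3 region was listed over any of the 3 genes or within 1 kb of them, in 2 control or 3 cKO libraries, nor in the IgG list. The lists held 11118 to 18494 regions over 21.3 to 81.3 Mb. The nearest region was 50.0 to 132 kb from Kdm6b and 1780 to 6430 kb from Kdm6a. In the IgG list the nearest region lay within these ranges, at 51.6 kb from Kdm6b and 6070 kb from Kdm6a. The Y held 1 region in 1 list (control 2), 826 kb from Uty. A gene without a listed region is not shown to lack the mark.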

How the data were processed

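Single-cell UMI counts were deposited per barcode of the kit's list, from Cell Ranger 4 on mm10 per the file headers and the submitters' processing notes, which also name Seurat 4.1.0. The ATAC-seq lists of the authors give a fold enrichment (a ratio) and a -log10 q per peak, from MACS2 per the submitters' processing notes. The CUT&Tag lists of the authors give a signal per region, from SEACR per the submitters' processing notes. No setting of these tools is given in the labels.

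Barcodes with at least 3000 UMIs were kept, 11252 in the control and 8520 in the cKO library. A cell entered the class whose marker list exceeded its cut by most, with at least 3 list genes detected. The 3 members, the lists and the cuts were chosen with earlier results of these data known, the cuts after marker levels had been seen. Classes with at least 50 cells in both libraries were compared. Ratios are of summed UMIs per summed UMIs, with exact conditional binomial intervals, and levels have exact Poisson intervals, shares of cells Clopper-Pearson intervals. Depth limits both: the floor of 3 counts over all control cells is 0.0226 CPM. Ratios of all genes had 0.5 added to each count. A gene counted as past the limit at a log2 ratio of 1 in size with at least 20 UMIs. No test was possible with 1 library per genotype.

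Free RNA was taken from the plateau, since barcodes of 10 to 99 UMIs, the pool first planned, also held much insulin RNA. Scrublet marked 619 (5.5%) and 555 (6.51%) cells as doublets, which were kept except in an alternative. Clusters (24) came from 2000 variable genes, 30 components, 15 neighbours and Leiden at resolution 1.5. Of the features, 81.6% were placed on a chromosome by symbol. Genes named are the 3 members, listed genes past the limit, partner pairs, the 5 genes most like each member and, after its values were seen, Ezh2. Peaks were sought within 1 kb of a gene or start. Alternatives were other UMI minimums, mean per-cell CPM, free RNA subtracted, doublets removed, at least 5 list genes, classes from clusters, stricter peaks, and, chosen after the data were seen, cells past 1 gate only, at most 10% mitochondrial UMIs, and spermatogonia-like cells of the spermatogonia cluster only. Round spermatid-like cells were also split by cluster. The ratio and interval steps were tested on simulated data. Bulk RNA-seq was not analysed here. Python 3.11.15, scipy 1.17.1 and scanpy 1.11.5 were used.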

Additional observations from a re-analysis of the deposited data

Results flagged for a closer look

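The Kdm6b ratios of 2 germ-cell classes had opposite signs. Its log2 ratio of cKO to control was 0.91 in meiotic entry-like cells (0.50, with an interval that includes 0, at a minimum of 2000 UMIs) and -0.44 in round spermatid-like cells. With 1 library per genotype this difference between classes was not tested. In 5 bins of the elongating list, over round and elongating spermatid-like cells pooled, the ratios ran from -0.27 to 0.09 and every interval included 0.

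Barcodes outside the cells also held Kdm6a. Those of 10 to 99 UMIs held 10.9 CPM in the control and 14.4 CPM in the cKO library, above the plateau of free RNA. The same barcodes held Ins2, an insulin gene of the pancreas, at 99300 CPM in control and 110000 CPM in cKO, beside Prm1, a protamine gene of spermatids, at 10600 and 10300 CPM. The plateau taken as free RNA held Prm1 at 14600 and 12400 CPM and Ins2 at 49.0 and 88.3 CPM. Ins2 was at 4.49 and 6.63 CPM in barcodes with at least 3000 UMIs. Barcodes from 2000 up to 3000 UMIs held Kdm6a at 4.53 CPM in control and 4.45 CPM in cKO. Of their Kdm6a UMIs, 18 in control and 7 in cKO lay in meiotic entry-like barcodes (97 and 93 barcodes, 69.7 and 30.2 CPM), and 8 and 5 in early prophase spermatocyte-like barcodes (55.2 and 15.5 CPM).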

How the results depend on the processing

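Log2 ratios of the 3 members were recomputed under up to 10 settings. Of 240 values, 233 lay within their counting interval and 7 did not. Kdm6a over all cells was -1.09 in cells past 1 gate only and -2.24 with at most 10% mitochondrial UMIs, and the latter setting gave -1.5 in Sertoli-like cells. Kdm6b in spermatogonia-like cells was 0.40 with at least 5 list genes, 0.20 with classes from clusters and 0.11 in the spermatogonia cluster only. Uty in early prophase spermatocyte-like cells was 0.92 at a minimum of 5000 UMIs. The cause was not tested. Kdm6a kept its direction in all 6 germ-cell classes under these settings. Its interval came to include 0 in spermatogonia-like cells under 4 settings and in elongating spermatid-like cells without called doublets. Intervals were not computed for the mean of per-cell CPM or with free RNA subtracted. Of levels, 48 moved and 426 did not, and of shares of cells with a UMI, 44 moved and 10 did not when cells were thinned. All 20 values of regions at the loci were the same with a stricter threshold on the lists or, for peaks at the starts, with overlap of the start itself. No paired analysis was possible because each single-cell group has 1 library, and the bulk libraries that carry replicate numbers were not analysed here. The planned fits of bulk transcripts, with their block, normalization, filter and left-out replicates, were not run. Depth limits the cKO values: 3 to 11 Kdm6a UMIs stand behind each of its germ-cell classes, and free RNA would give 1.62 of the 5 in late spermatocyte-like and 4.11 of the 7 in elongating spermatid-like cells.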
